A study of Sus scrofa with 11 samples.

Results

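MT1X, a metallothionein, and ZFAND2A, the arsenite-inducible AN1-type zinc finger protein also called AIRAP, were followed in pig heart slices before and during culture. They were the 2 of 16319 measured genes whose symbols were MT1X (ENSSSCG00000030300) and ZFAND2A (ENSSSCG00000007554). They were chosen by their measured levels, which on day 6 stood far above those on day 0, so their day 6 levels and differences from day 0 are given as a description with no test. The slices came from the hearts of wild-type Yorkshire pigs aged 3 months. RNA was sequenced on day 0 (3 libraries), and under the label Stim on day 2 (2 libraries), day 6 (3 libraries) and day 10 (3 libraries). What Stim means is not in the labels, and no unstimulated culture was analysed here, so time in culture and stimulation cannot be told apart. Nor do the labels say whether the libraries of a day came from separate animals, so p-values measure only the spread between these libraries, which may be technical.

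Metallothioneins are small cysteine-rich proteins that bind zinc, copper and cadmium. Their genes are switched on by the zinc-sensing transcription factor MTF1 when free metal rises, and also respond to oxidants and glucocorticoids. ZFAND2A is made by cells exposed to arsenite, cadmium or misfolded protein, largely through heat shock factor 1, and its product associates with the proteasome, the protease that degrades ubiquitin-tagged proteins. Both genes are thus known as reporters of metal stress, and ZFAND2A as a reporter of protein misfolding as well.

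The libraries held 11695060 to 16773577 reads, recovered from the FPKM values (read numbers corrected for the length of the gene and the total of the library). Day 0 replicate 2 and day 2 replicate 1 stood apart, with 4536 and 4017 genes at 0 reads against 1310 to 2331 in the other 9. The tissue label was borne out on day 0, where MYH6, a cardiac myosin heavy chain, was at 6878 to 24753 FPKM. The summed level of 8 cardiomyocyte markers was 72833 to 159110 FPKM on day 0, 2420 to 15899 on day 2, 13044 to 29217 on day 6 and 22.2 to 144 on day 10. MYH6 was at 1.30 to 2.53 FPKM on day 10. In bulk RNA, fewer cells of a type and less RNA per cell cannot be told apart.

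MT1X went from a modest level on day 0 to a high one on days 2 and 6, and on day 10 its mean was 3.29 times that of day 0. Its level on day 0 was 12.8, 13.5 and 4.63 FPKM in replicates 1 to 3, from 75, 72 and 32 reads. The day 2 libraries held 525 and 234 FPKM. The day 6 libraries held 538, 7804 and 578 FPKM, and the day 10 libraries 55.1, 34.9 and 11.8 FPKM. Every day 2 and day 6 library was above every day 0 and day 10 library, while of the day 10 libraries replicate 3 lay within the day 0 range and the other 2 lay above it. Day 6 replicate 2 stood apart at 14.0 times the mean of the other 2 day 6 libraries, which was 558 FPKM. In that library 41007 reads, or 0.329% of all (95% Wilson interval 0.326 to 0.332, counting error only), came from MT1X, and it ranked 15 among all genes, against 159 and 135 in day 6 replicates 1 and 3. In day 0 replicate 3 it ranked 7629.

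The mean level of MT1X was 10.3 ± 4.95 FPKM (SD, n = 3) on day 0, 380 ± 206 (n = 2) on day 2, 2974 ± 4184 (n = 3) on day 6 and 34.0 ± 21.7 (n = 3) on day 10. On the log2(FPKM + 1) scale, its difference from day 0 was 5.08 ± 1.02 (SE, 95% interval 2.86 to 7.29) on day 2. The difference was 7.01 ± 0.92 (5.03 to 8.99) on day 6, second in size among 12625 tested genes. It was 1.51 ± 0.92 (-0.48 to 3.49) on day 10. Over all tested genes, the median difference from day 0 was 0.51, 0.88 and 0.51 on days 2, 6 and 10. Without day 6 replicate 2 the day 6 difference was 5.75, and the mean of day 6 replicates 1 and 3 was 558 FPKM. These values are also a description, since all day 6 libraries took part in the choice of MT1X.

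**Figure D1:**
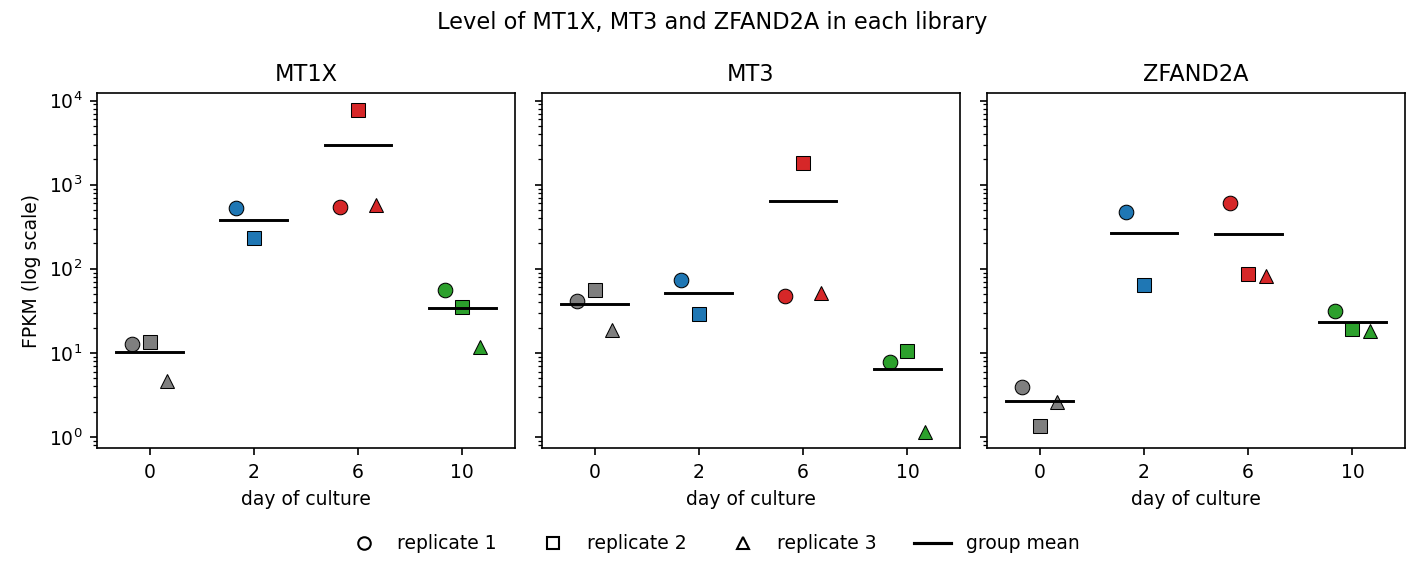
FPKM on a log axis in each of 11 libraries for MT1X, MT3 and ZFAND2A by day of culture; symbols give the replicate number, colours the day and black bars the group mean. MT1X and MT3 were highest in day 6 replicate 2 (7804 and 1795 FPKM), ZFAND2A in day 6 replicate 1 (603 FPKM), and the day 10 libraries were below the day 2 and day 6 libraries for all 3 genes.

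ZFAND2A had a middling level on day 0, above 40.4% to 60.1% of all genes, and stayed above its day 0 range through day 10. Its level on day 0 was 3.94, 1.36 and 2.62 FPKM, from 83, 26 and 65 reads. The day 2 libraries held 472 and 64.9 FPKM. The day 6 libraries held 603, 87.6 and 82.8 FPKM, and the day 10 libraries 31.5, 19.2 and 18.3 FPKM. The lowest day 10 library was thus above the highest day 0 library, and the highest day 10 library was below the lowest of days 2 and 6. A high library stood out on both earlier days, since day 2 replicate 1 was at 7.27 times replicate 2, and day 6 replicate 1 at 7.07 times the mean of the other 2 day 6 libraries. On every day replicate 1 was the highest library, though nothing in the labels ties a replicate number to an animal.

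The mean level of ZFAND2A was 2.64 ± 1.29 FPKM (SD, n = 3) on day 0, 268 ± 288 (n = 2) on day 2, 258 ± 299 (n = 3) on day 6 and 23.0 ± 7.35 (n = 3) on day 10. Its log2(FPKM + 1) difference from day 0 was 5.66 ± 0.91 (SE, 95% interval 3.70 to 7.63) on day 2 and 5.57 ± 0.81 (3.81 to 7.32) on day 6, ninth in size among the rises on both days. On day 10 the difference was 2.74 ± 0.81 (0.99 to 4.50). Day 2 replicate 1 weighed on the day 2 value, which was 4.24 without it and 3.96 without both it and day 0 replicate 2. Both genes stayed above day 0 on days 2 and 6 when the libraries were rescaled by the median ratio of their genes, which moved the median over all genes to 0.0035, 0.12 and 0.073 on days 2, 6 and 10. With that scaling MT1X differed from day 0 by 4.31, 5.89 and 0.81, and ZFAND2A by 5.05, 4.60 and 2.20.

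The order of the mean levels was day 0, day 10, day 2 and day 6 for MT1X, and day 0, day 10, day 6 and day 2 for ZFAND2A. The day 2 and day 6 libraries of ZFAND2A overlapped, while for MT1X the lowest day 6 library (538 FPKM) lay just above the highest of day 2 (525 FPKM). The log2 difference, described here with no test (day 6 minus day 2), was 1.94 ± 1.02 for MT1X (95% interval -0.28 to 4.15) and -0.10 ± 0.91 for ZFAND2A (-2.06 to 1.86). For ZFAND2A its sign turned on the library left out, from -1.52 without day 2 replicate 2 to 1.32 without day 2 replicate 1. From day 6 to day 10, MT1X differed by -5.51 ± 0.92 and ZFAND2A by -2.82 ± 0.81.

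Day 10 against day 2 was the comparison that shared no library with day 6 against day 0, and there the fall of the members was tested across all genes. The log2 difference (day 10 minus day 2) was -3.57 ± 1.02 for MT1X (95% interval -5.79 to -1.36) and -2.92 ± 0.91 for ZFAND2A (-4.88 to -0.96). The unadjusted limma p-values were 0.00405 and 0.00679. After adjustment over 12625 genes, the limma adjusted p was 0.195 and 0.262, so neither passed the threshold of 0.05, in a comparison where 0.665% of genes did (0.333% higher and 0.333% lower). Across the other settings the adjusted p ranged from 0.0476 to 0.87 for MT1X and from 0.0646 to 0.87 for ZFAND2A, and the lowest MT1X value came from the fit without day 6 replicate 2. Every day 10 library was below both day 2 libraries for both genes, and the mean level on day 2 was 11.2 times that on day 10 for MT1X and 11.7 times for ZFAND2A. Of 8 cardiomyocyte markers, 7 were lower on day 10 than on day 2 at limma adjusted p under 0.05, and the part of this change in the fall of MT1X and ZFAND2A was not tested.

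The highest libraries of the members were not the same ones. In day 6 replicate 2, MT1X was at 89.0 times the FPKM of ZFAND2A, while in day 6 replicate 1 the ratio was 0.893. Over all tested genes, the excess of day 6 replicate 2 over the other 2 day 6 libraries, taken on FPKM + 1, ranked MT1X at 14 of 12625 and ZFAND2A at 12526. The same excess for day 6 replicate 1 ranked ZFAND2A at 4 and MT1X at 12610. The summed cardiomyocyte markers were at 29217 FPKM in day 6 replicate 2, against 13044 and 14298 in replicates 1 and 3, and PECAM1, an endothelial marker, was at 1794 FPKM there against 1151 and 728. The part of these cell types in the high MT1X value was not tested.

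**Figure D2:**
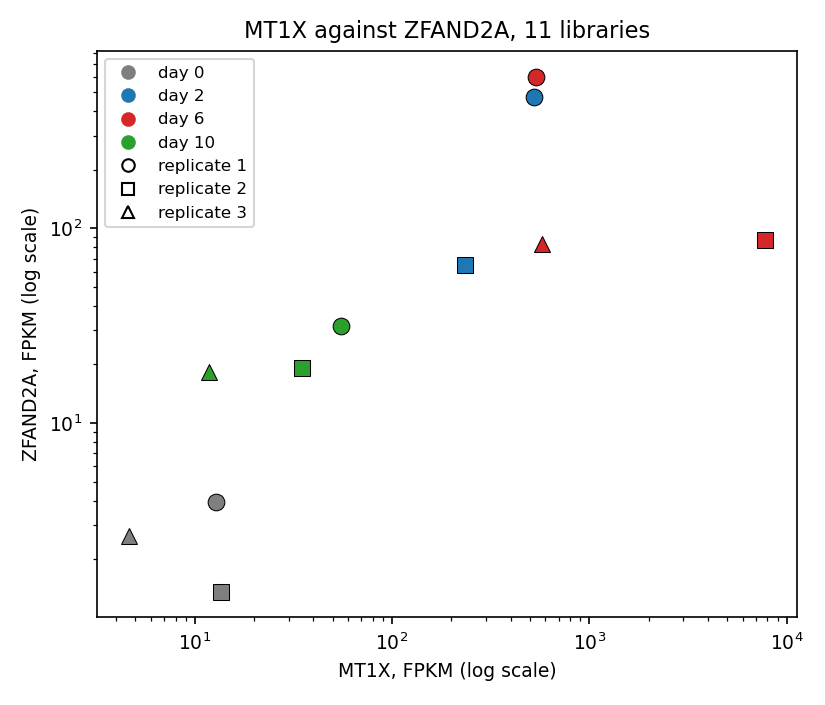
FPKM of MT1X (x axis) against ZFAND2A (y axis), both on log axes, in 11 libraries, with colours for the day and symbols for the replicate number. The day 0 libraries sat lowest for ZFAND2A (1.36 to 3.94 FPKM), day 6 replicate 2 lay far to the right (7804 FPKM of MT1X) and day 6 replicate 1 and day 2 replicate 1 lay highest (603 and 472 FPKM of ZFAND2A).

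Over the 8 cultured libraries, log2(FPKM + 1) of MT1X and ZFAND2A had a Pearson r of 0.623 and a Spearman rho of 0.81. These are given as a description with no p, since the day 6 values that chose both genes are among them, and the 3 day 10 libraries were the lowest 3 for both genes. Without the 2 libraries farthest from the median of MT1X, day 6 replicate 2 and day 10 replicate 3, r was 0.838 over 6 libraries. Both genes had the same order of libraries on day 2 and on day 10, and a different order on day 6. For deviations from each day's mean, r was -0.108, and groups of 2 or 3 libraries are too small to show whether a relation within days exists.

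Among 13 other listed metallothioneins, MT3 (ENSSSCG00000024305) was matched by its symbol, and no other was. MT3 is the metallothionein best known from brain, where it binds zinc and copper. Its level was 41.5, 55.7 and 18.6 FPKM on day 0, 73.0 and 29.1 on day 2, 47.9, 1795 and 51.4 on day 6, and 7.69, 10.5 and 1.15 on day 10. The day 2 libraries lay within or just above the day 0 range, and on day 6 replicate 2 alone was far outside it, at 36.1 times the mean of the other 2. The day 10 libraries were all below those of the other days, a difference from day 0 of -2.59 ± 1.15 (log2, limma adjusted p = 0.137). The differences on day 2 (0.39 ± 1.29, limma adjusted p = 0.885) and day 6 (2.20 ± 1.15, limma adjusted p = 0.18) did not pass either, and the day 2 value turned to -0.40 with median ratio scaling.

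MT3 exceeded MT1X on day 0, with FPKM ratios of 3.24 to 4.11, and was below it in all 8 cultured libraries, with ratios of 0.0889 to 0.301. How the authors' counting split reads between near-identical metallothionein genes is not stated in any source used here, so the levels of both are uncertain to that extent. In the RefSeq annotation of the pig assembly Sscrofa11.1, MT3 lies in a row with MT4, MT-2B, MT1D and MT1A, which are further candidates for shared reads. That row also held genes without a name, and none of the 6 protein-coding neighbours on either side of MT3 was named MT1X. The part of shared reads in these levels was not tested.

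The other ZFAND genes, which also carry AN1-type zinc fingers, gave no call. Of 6 listed, 5 were found and 4 passed the filter of a mean of 1 FPKM, and 0 of these 4 passed the limma test on day 2, 6 or 10 against day 0, or on day 10 against day 2. At an unadjusted p under 0.05, 1 of the 4 was higher on day 2 and 1 on day 10, where 18.3% and 23.1% of all tested genes were. Without day 0 replicate 2, limma called 1 of them higher on day 2 and 1 on day 10. Their median difference was 0.75, 0.85 and 1.08 on days 2, 6 and 10, against 0.51, 0.88 and 0.51 over all genes.

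ZFAND2B, the membrane-bound relative of ZFAND2A that works with the segregase VCP at the endoplasmic reticulum, was at 12.2, 38.1 and 17.5 FPKM on day 0 and at 74.2 and 43.7 on day 2. It was at 48.5, 31.7 and 44.0 on day 6 and at 67.8, 61.8 and 32.5 on day 10. Its day 10 and day 6 libraries overlapped those of day 0. ZFAND1, which brings VCP and proteasomes to arsenite-induced stress granules in human cells, stayed between 0.199 and 3.49 FPKM. ZFAND5, a proteasome activator, lay between 4.50 and 23.1 FPKM, and ZFAND6 between 5.53 and 73.2. ZFAND4 stayed at or below 1.23 FPKM and was not tested.

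In the deposited scaling, a minority of the genes of metal handling passed the test as higher in culture. Among them were the zinc carriers SLC39A1 and SLC39A7 on all 3 days. Of 17 tested genes of zinc, copper and iron handling (32 listed, 19 found), limma called 3 higher on day 2, 4 on day 6 and 4 on day 10, with 0 lower. These are shares of 17.6%, 23.5% and 23.5%, beside 5.76%, 9.55% and 11.9% of all tested genes called higher and 3.14%, 1.76% and 6.23% called lower (8.9%, 11.3% and 18.2% in either direction). The list's median difference from day 0 was 0.38, 1.39 and 0.86, against 0.51, 0.88 and 0.51 over all genes. SLC39A1, a zinc importer of the cell membrane, was at 31.6, 18.4 and 23.2 FPKM on day 0 and at 97.7 to 126 in all 8 cultured libraries. Its log2 difference was 2.19 ± 0.42 on day 2, 2.04 ± 0.38 on day 6 and 2.16 ± 0.38 on day 10 (limma adjusted p = 0.00856, 0.00905 and 0.00179).

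SLC39A7, which releases zinc from the endoplasmic reticulum, was at 3.28 to 5.61 FPKM on day 0 and at 17.1 to 32.4 in culture, with differences of 2.33, 2.13 and 2.13 (limma adjusted p = 0.0147, 0.0164 and 0.00628). SLC39A6, another zinc importer, rose on day 2 (2.61, limma adjusted p = 0.039) and day 6 (3.14, limma adjusted p = 0.0134). SLC30A7, which loads zinc into the Golgi, rose on day 10 (2.55, limma adjusted p = 0.0144). The day 10 libraries of SLC39A1 held 126, 97.9 and 108 FPKM, all above its day 0 range.

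These counts fell when some single libraries were left out and with another scaling, as did those over all tested genes. When day 2 replicate 1 was left out the day 2 count of higher genes was 0, and it was 1 when replicate 2 of that day was. Leaving out day 6 replicate 1 gave 0 on day 6, leaving out replicate 3 of that day gave 2, and leaving out day 10 replicate 3 gave 2 on day 10. Over all tested genes, 103 and 317 were called higher in those day 6 fits and 927 in that of day 10. With all libraries they were 1206 and 1508. The day 6 difference of SLC39A1 was 2.01 without day 6 replicate 1 and 2.04 with it. Median ratio scaling gave 2, 1 and 3, where it called 337, 270 and 912 of all tested genes higher. It also ended the calls of SLC39A1 and SLC39A7 on day 2, day 6 and day 10.

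Genes of the arsenite and cadmium response were called higher on all 3 days. Many of them are targets of NRF2, the factor that switches on defence against oxidants and electrophiles. Of 12 tested genes (24 listed), limma called 9 higher on day 2, 10 on day 6 and 7 on day 10, with 0 lower, or 75.0%, 83.3% and 58.3%. Of all tested genes, 5.76%, 9.55% and 11.9% were called higher. The list's median difference was 2.94, 3.40 and 2.10, against 0.51, 0.88 and 0.51 over all genes. SRXN1, which encodes sulfiredoxin, a repair enzyme of peroxiredoxins, was at 3.38, 0.282 and 1.47 FPKM on day 0. It was at 241 and 130 on day 2, at 314, 85.0 and 122 on day 6 and at 93.3, 83.6 and 59.9 on day 10, so that no cultured library overlapped day 0. Its differences were 6.21 ± 0.65, 5.96 ± 0.58 and 5.03 ± 0.58 (limma adjusted p = 0.000489, 0.000363 and 9.13e-05). Like ZFAND2A, SRXN1 was highest in replicate 1 on each of the 4 days.

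NQO1, a quinone reductase, was at 4.58 to 12.7 FPKM on day 0 and at 61.2 to 234 in culture, with differences of 4.12, 3.26 and 3.46 (limma adjusted p = 0.00223, 0.00558 and 0.000742). GCLC, the catalytic subunit of the rate-limiting enzyme of glutathione synthesis, rose on day 6 (3.50, limma adjusted p = 0.00552) and day 10 (3.84, limma adjusted p = 0.00058). MAFF, a small MAF transcription factor, rose on day 2 (3.93, limma adjusted p = 0.00674), from 5.29 to 9.92 FPKM on day 0 to 199 and 81.1. The calls of SRXN1, NQO1 and GCLC held when any 1 library was left out, and that of MAFF ended when day 2 replicate 1 was dropped (limma adjusted p = 0.0743). Leaving out either day 2 library brought the day 2 count to 4, leaving out day 6 replicate 1 brought the day 6 count to 4, and leaving out day 0 replicate 1 or day 10 replicate 1 brought the day 10 count to 4. Over all tested genes, 103 were called higher on day 6 without day 6 replicate 1, against 1206 with all libraries. Median ratio scaling gave 7, 5 and 5 higher, with 1 lower on day 10. That scaling called 337, 270 and 912 of all 12625 tested genes higher, against 727, 1206 and 1508 in the deposited scaling.

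Targets of heat shock factor 1, the regulator that drives chaperone genes when proteins misfold, gave their largest count on day 6. Of 22 tested genes (30 listed), limma called 4 higher and 1 lower on day 2, 9 higher and 0 lower on day 6, and 3 higher and 1 lower on day 10. The higher shares were 18.2%, 40.9% and 13.6%, beside 5.76%, 9.55% and 11.9% of all tested genes, so the day 10 share was close to that of all genes. HSPH1, a nucleotide exchange factor of the HSP70 chaperones, was at 0.507 to 8.17 FPKM on day 0. It was at 43.6 and 33.0 on day 2, at 53.0, 42.9 and 36.7 on day 6 and at 22.3, 20.7 and 30.8 on day 10. Its differences were 3.05, 3.24 and 2.42 (limma adjusted p = 0.0176, 0.0099 and 0.0162).

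DNAJB1, an HSP40 cochaperone, was at 12.9 to 20.0 FPKM on day 0 and at 347 and 54.9 on day 2, a difference of 3.01 ± 0.72 (limma adjusted p = 0.0234). Its high library was day 2 replicate 1, one of the high libraries of ZFAND2A. BAG3, which hands clients of HSPB8 and HSP70 to autophagy, was at 10.7 to 38.9 FPKM on day 0 and at 104, 145 and 92.9 on day 6, a difference of 2.25 ± 0.54 (limma adjusted p = 0.0239). HSPA1L, an HSP70 that may share reads with its close relatives, was at 21.9 to 140 FPKM on day 0 and at 720, 3062 and 185 on day 6 (3.52 ± 0.95, limma adjusted p = 0.0354). Its highest library was day 6 replicate 2, which was also that of MT1X and MT3. DNAJA1, another HSP40, rose on day 10 (2.43, limma adjusted p = 0.0254).

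HSPB8, a small heat shock protein of muscle and heart, went the other way. It was at 232, 124 and 202 FPKM on day 0, 31.1 and 43.2 on day 2 and 10.4, 1.72 and 3.75 on day 10. It fell by 2.26 ± 0.63 on day 2 (limma adjusted p = 0.0408) and by 5.10 ± 0.56 on day 10 (limma adjusted p = 6.19e-05). On day 6 it was at 142, 340 and 158 FPKM, across the day 0 range. Of the 8 cardiomyocyte markers, limma called 6 lower on day 2, 3 on day 6 and 8 on day 10. Of all tested genes, 3.14%, 1.76% and 6.23% were called lower. The summed level of the markers was below its day 0 range on day 2, day 6 and day 10, and their part in the fall of HSPB8 was not tested.

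The heat shock count of 9 on day 6 fell to 0, 1 and 3 when replicates 1, 2 and 3 of that day were left out. Over all tested genes, the 1206 called higher on day 6 fell to 103, 439 and 317 in the same fits. Leaving out day 0 replicate 2 or day 10 replicate 2 gave 2, day 10 replicate 1 gave 4 and day 10 replicate 3 gave 5. Median ratio scaling gave 1, where it called 270 of all tested genes higher. The day 2 count of 4 fell to 0 when day 2 replicate 1 was left out, to 1 for the other day 2 library, and to 2 for any 1 of the day 6 libraries or for day 10 replicates 1 and 2, each left out alone. With median ratio scaling the day 2 count was 1, where 337 of all tested genes were called higher. The day 10 count of 3 fell to 0 when day 10 replicate 3 was left out. It fell to 1 for replicate 1 of that day or with median ratio scaling. Over all tested genes, the 1508 called higher on day 10 fell to 927, 951 and 912 in these settings.

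Some genes of the protein degradation machinery were called higher in culture. Of 20 tested genes for VCP, its adaptors and degradation at the endoplasmic reticulum (31 listed), 4 were called higher on day 2, 4 on day 6 and 2 on day 10, with 0 lower. Of 20 tested proteasome genes (35 listed), 4, 5 and 2 were called higher, with 0 lower. The shares were 20.0%, 20.0% and 10.0% for the first list and 20.0%, 25.0% and 10.0% for the proteasome. Of all tested genes, 5.76%, 9.55% and 11.9% were called higher, so on day 10 both lists were below that share. Median differences were 0.96, 1.46 and 0.81 for the first list and 1.53, 1.47 and 1.11 for the proteasome. Over all genes they were 0.51, 0.88 and 0.51.

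SELENOS, a selenoprotein of the endoplasmic reticulum membrane that binds VCP, was at 13.4 to 22.3 FPKM on day 0, 215 and 84.6 on day 2, 145, 56.4 and 85.5 on day 6, and 182, 151 and 78.5 on day 10. Its differences were 2.79, 2.19 and 2.73 (limma adjusted p = 0.0121, 0.0235 and 0.00322), and no cultured library overlapped day 0. UBE2J1, a ubiquitin-conjugating enzyme of the same pathway, rose on day 2 (2.68, limma adjusted p = 0.0127) and day 10 (2.47, limma adjusted p = 0.00499). VCP itself was at 38.9 to 134 FPKM on day 0 and at 411, 232 and 355 on day 6 (2.06, limma adjusted p = 0.0245). Its adaptor NPLOC4 rose on day 6 (1.87, limma adjusted p = 0.0148) and its adaptor UFD1 on day 2 (1.60, limma adjusted p = 0.0428).

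PSMA5, of the proteasome core, was at 24.0 to 59.2 FPKM on day 0, 256 and 191 on day 2, 188, 104 and 153 on day 6, and 214, 99.2 and 110 on day 10. Its differences were 2.36, 1.74 and 1.62 (limma adjusted p = 0.0188, 0.0379 and 0.0333). Of the regulatory cap, PSMC1 rose on day 2 (1.98, limma adjusted p = 0.0234), PSMD3 on day 2 (1.85, limma adjusted p = 0.0247) and day 6 (1.52, limma adjusted p = 0.0336), PSMD11 on day 6 (2.34, limma adjusted p = 0.0338) and PSMD14 on day 10 (1.75, limma adjusted p = 0.048).

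Both counts changed when single libraries were left out, and so did the count over all tested genes. On day 6, 1206 of all tested genes were called higher, and 103, 439 and 317 without day 6 replicates 1, 2 and 3. In these fits the day 6 differences were 1.44, 1.62 and 1.51 for PSMD3, 2.16, 2.56 and 2.31 for PSMD11, and 1.56, 1.98 and 1.70 for PSMA5. Leaving out either day 2 library brought the proteasome count on day 2 to 0, and leaving out day 0 replicate 3 brought it to 2. On day 6 it fell to 0 when any 1 of the day 6 libraries was left out, to 1 for day 10 replicate 2, to 2 for day 0 replicate 2, and to 3 for day 0 replicate 3 or day 10 replicate 3. On day 10 it was 0 when day 0 replicate 2, day 6 replicate 1 or 3, or any day 10 library was left out, 1 for day 0 replicate 1, day 6 replicate 2 or either day 2 library, and 4 for day 0 replicate 3. The VCP count on day 2 fell to 0 when day 2 replicate 1 was left out, to 1 for the other day 2 library, and to 2 for day 0 replicate 3, day 10 replicate 2 or any 1 of the day 6 libraries. On day 6 it fell to 0 when day 6 replicate 1 or 3 was left out. Median ratio scaling gave 1, 0 and 2 for VCP and 0, 0 and 0 for the proteasome. It called 337, 270 and 912 of all tested genes higher. In the deposited scaling, 11, 11 and 7 of the 20 proteasome genes (55.0%, 55.0% and 35.0%) were higher at an unadjusted limma p under 0.05. Of all tested genes, 18.3%, 30.5% and 23.1% were.

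**Figure D3:**
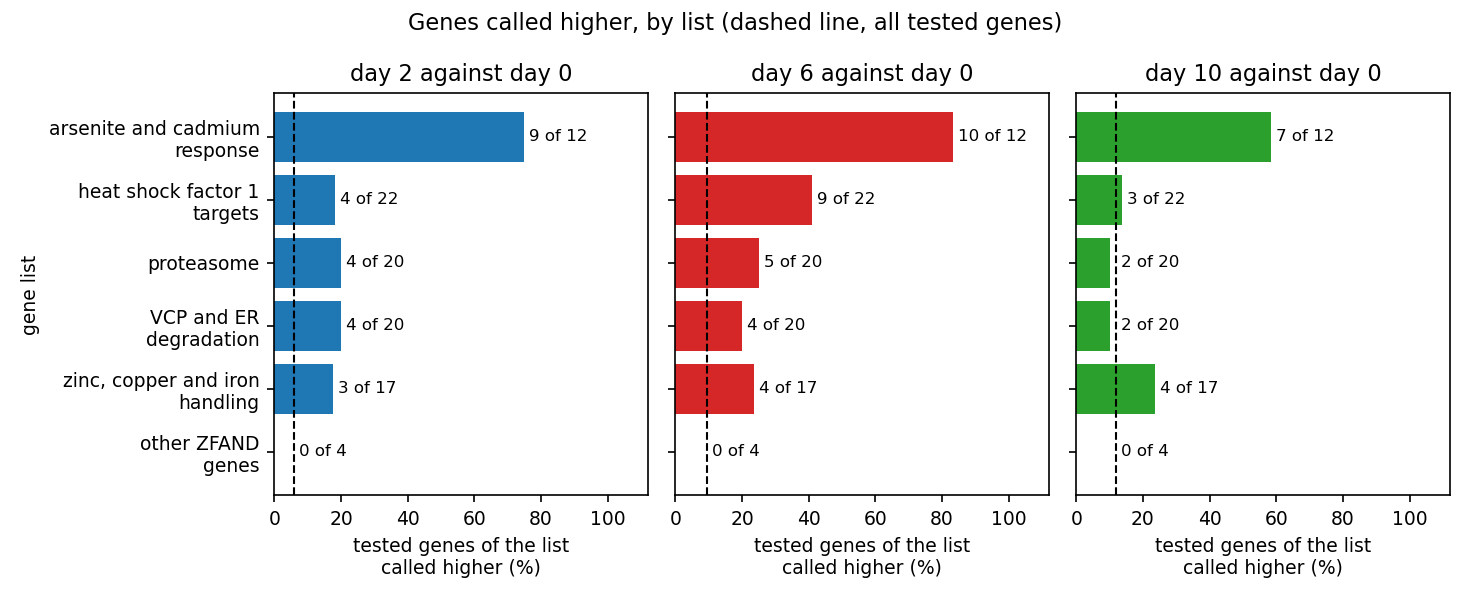
Share of the tested genes of 6 lists called higher than on day 0 (limma adjusted p under 0.05), by day; the text beside each bar gives the count, MT1X and ZFAND2A left out, and the dashed line the share of all tested genes. The arsenite and cadmium list led on all 3 days with 75.0%, 83.3% and 58.3%, and on day 10 the proteasome and VCP lists were below the dashed line at 11.9%.

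Of the 43 gene and day pairs named above as called, 15 each on days 2 and 6 and 13 on day 10, most ended in at least 1 setting. Without day 2 replicate 1, 13 of the 15 day 2 calls ended, all but those of SRXN1 and NQO1 (adjusted p of the ended calls 0.0512 to 0.183). Without day 6 replicate 1, 12 of the 15 day 6 calls ended, all but those of SRXN1, GCLC and NQO1 (0.0694 to 0.167). Without day 10 replicate 3, 5 of the 13 day 10 calls ended (0.0528 to 0.0944). Median ratio scaling ended 8, 10 and 5 of the calls. Fitting only the compared groups ended all 15 day 2 calls (adjusted p 0.0503 to 0.295, limma), 8 on day 6 and 4 on day 10. In none of the 43 did the difference change its sign in any setting run.

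From day 2 to day 10 the lists gave no call. Of 96 list entries tested over the 7 lists (metallothioneins, zinc handling, ZFAND, heat shock, VCP, proteasome, and arsenite and cadmium), 0 passed limma. At an unadjusted p under 0.05, 12 of the 96 (12.5%) were lower and 0 higher on day 10, where 3.7% of all tested genes were lower and 4.4% higher. Of the 12, 5 belonged to the arsenite and cadmium list and 4 to the heat shock list. The arsenite and cadmium list had a median of -1.12 and the heat shock list of -0.66, against -0.05 over all genes.

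The genes whose profile was most like that of MT1X were named by Pearson correlation of log2(FPKM + 1), given as a description over libraries that share days. Over all 11 libraries, and among 5609 genes with a symbol and a mean of at least 5 FPKM, these were GADD45B (r = 0.93), NRIP3 (0.926), HBEGF (0.925), IER3 (0.91) and RPS6KA1 (0.894). GADD45B, a stress-induced growth arrest gene, was at 10.4 to 19.9 FPKM on day 0, and at 123, 869 and 94.3 on day 6. HBEGF, a growth factor of the EGF family, was at 0.425 to 4.09 FPKM on day 0, and at 32.2, 186 and 10.7 on day 6. Both were highest in day 6 replicate 2, as MT1X was. ZFAND2A ranked 83 in this order (r = 0.795).

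Over the 8 cultured libraries the closest to MT1X were SLC25A4 (r = 0.977), MT3 (0.977), TESC (0.97), LNP1 (0.96) and ASB2 (0.959). Among them were genes that were higher on day 0 than in culture. SLC25A4, the mitochondrial ADP/ATP carrier of heart and muscle, was at 2835 to 4769 FPKM on day 0, at 354, 1001 and 411 on day 6 and at 22.7 to 61.8 on day 10. ASB2, a ubiquitin ligase subunit of muscle, was at 103 to 158 FPKM on day 0, at 4.60, 21.4 and 5.22 on day 6 and at or below 0.326 on day 10. MYH6 had the same order of the day 6 libraries, at 2063, 5295 and 2096 FPKM. In day 6 replicate 2, MT1X, MT3, SLC25A4, ASB2 and MYH6 were all at their highest level of the 8 cultured libraries. On day 0, SLC25A4, ASB2 and MYH6 were higher than in any cultured library, and MT1X was below every day 2 and day 6 library.

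For ZFAND2A the closest genes over 11 libraries were RASSF1 (r = 0.971), IL6 (0.967), TGM3 (0.964), PUS1 (0.961) and CYTH2 (0.96). IL6, an inflammatory cytokine, was listed at 0 in all 3 day 0 libraries, at 31.7 and 3.73 FPKM on day 2, at 33.5, 10.1 and 5.56 on day 6 and at 4.26 to 6.16 on day 10. TGM3, a transglutaminase best known from skin, was at 0 to 0.15 FPKM on day 0, at 43.5 and 5.68 on day 2, at 82.5, 17.2 and 15.6 on day 6 and at 0.657 to 2.19 on day 10. Both peaked in day 2 replicate 1 and day 6 replicate 1, the high libraries of ZFAND2A. Over the 8 cultured libraries the closest were TGM3 (0.971), ADCK5 (0.955), HABP2 (0.954), CDK2AP2 (0.952) and SLC66A2 (0.945), and MT1X ranked 652.

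**Figure D4:**
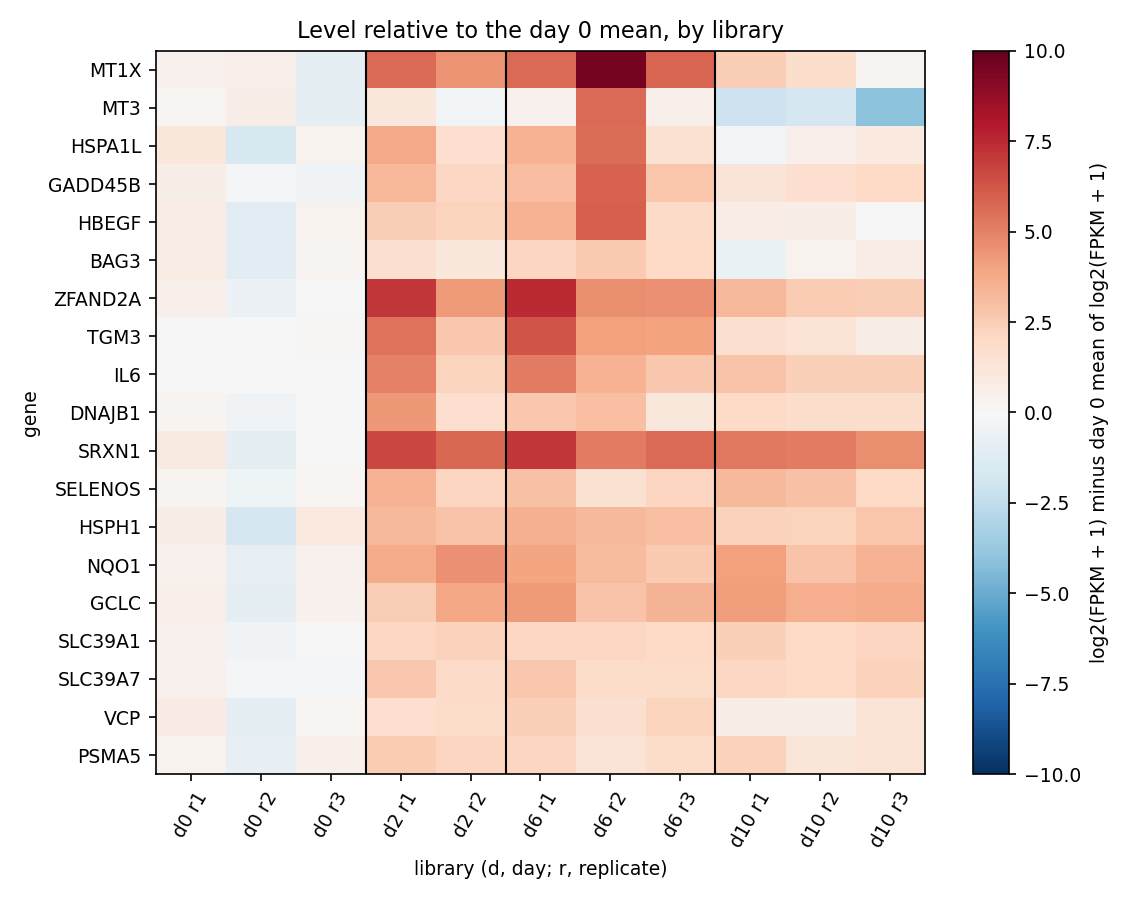
Level of 19 genes in 11 libraries as log2(FPKM + 1) minus the gene's mean on day 0, red above and blue below it, with columns ordered by day (d) and replicate (r). HSPA1L, MT3, GADD45B and HBEGF were darkest with MT1X in day 6 replicate 2, TGM3 and IL6 with ZFAND2A in day 2 replicate 1 and day 6 replicate 1, and SLC39A1 was even over all 8 cultured libraries (97.7 to 126 FPKM).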

How the data were processed

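RNA of 11 heart slice libraries had been isolated with Trizol and made into TruSeq libraries, per the labels' protocols. The authors deposited 1 FPKM value per gene and library for 16319 pig Ensembl genes, of which 9686 had a symbol in the name table used. Bowtie 0.12.2 and mm8, a mouse build, appear without a role in the submitters' processing notes. No source used here states the counter, the annotation or how shared reads were handled, and no coordinates are printed.

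Reads behind the FPKM values were recovered from their steps (100.0% of values above 0 came out whole within 0.01, 16073 genes). Genes with a mean of at least 1 FPKM (12625) were tested as log2(FPKM + 1), which understates changes of low genes, with limma 3.58.1 in R 4.3.3 (lmFit, eBayes with trend, 4 groups, 7 residual and 5.89 prior degrees of freedom, two-sided, Benjamini-Hochberg, threshold 0.05). Alternatives were pseudocounts, filters, scalings, a replicate block, fits of the compared groups alone and leaving out libraries. The steps were tested on simulated data.

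The members and gene lists were chosen with earlier results of these data known. Named were every matched metallothionein and ZFAND gene, up to 3 called genes per other list and comparison with the smallest p, and the 5 genes most like each member. The members' p is given only where no library is shared with the contrast that chose them, though the fit pools the spread of all groups.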

Additional observations from a re-analysis of the deposited data

How the results depend on the processing

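The differences of MT1X and ZFAND2A from day 0 kept their direction in every setting run. On day 6 they ranged from 5.75 to 7.67 and from 4.49 to 6.05. ZFAND2A differed from day 0 on day 2 by 3.96, and between days 6 and 2 by 1.32, without both day 0 replicate 2 and day 2 replicate 1. With 1 library left out, those values ranged from 4.24 to 7.09 and from -1.52 to 1.32, and MT1X on day 10 against day 2 from -4.15 to -2.97, passing the threshold without day 6 replicate 2. The correlation of MT1X with ZFAND2A was 0.503 to 0.851 with 1 library left out (0.851 without day 6 replicate 2) and -0.108 for deviations from day means; the cause was not tested. Counts of genes past the threshold were 1124, 1428, 2295 and 84 for days 2, 6 and 10 against day 0 and day 10 against day 2. With 1 library left out they ranged from 365 to 1762, 117 to 1522, 1462 to 2705 and 11 to 238. With only the compared groups in the fit, which leaves fewer libraries, they were 17, 536, 1310 and 19. The day 2 count was 721 with equal totals and 1754 with quantile normalization, and the day 6 count 942 with a pseudocount of 0.1 and 866 with median ratio scaling, and without the 2 sparse libraries (day 0 replicate 2 and day 2 replicate 1) the day 6 count was 2017 and the day 10 count 3449. Higher and lower calls against day 0 were 727 and 397, 1206 and 222, and 1508 and 787. With median ratio scaling they were 337 and 816, 270 and 596, and 912 and 1245, and with quantile normalization 751 and 1003, 692 and 858, and 1393 and 1424. On day 10 against day 2 the 42 and 42 became 54 and 25 with median ratio scaling. With the replicate number as a block, day 10 against day 2 gave 53 calls, the difference of ZFAND2A on day 6 from day 2 was 0.10, and the day 2 calls of HSPB8 and UFD1 ended (limma adjusted p 0.0657 to 0.0776), with no other named call lost. Of 15 same-number pairs of libraries, 9 had residual correlations above 0.1 (range -0.552 to 0.469), and 5 of 11 libraries correlated best with their own number. With no different-number pairs set beside them, these values cannot decide whether equal numbers pair the libraries. MT3 on day 2 turned to -0.40 with median ratio scaling, -0.069 with quantile normalization, and -0.29 with the block, and ranged from -0.26 to 1.04 with 1 library left out (-0.057 without day 0 replicate 3, -0.26 without day 2 replicate 1). Of the other values, which were single-gene differences and list counts in each setting, 1847 stayed the same. Among the rest, 175 calls of single genes ended, 1 was gained, and 135 list counts moved. The planned count-model test on recovered reads is left out here, since the deposited values are FPKM and not counts. Depth limits MT1X and ZFAND2A on day 0, where 26 to 83 reads stand behind each value, and groups of 2 or 3 libraries limit all intervals.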
